A study of Trichosurus vulpecula with 6 samples.

Results

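The cytosolic ribosome, which translates messenger RNA into protein, is built from a small and a large subunit, each an assembly of ribosomal RNA and ribosomal proteins. Every ribosomal protein is made from its own gene, and the messenger RNAs of these genes start with a run of pyrimidines, the terminal oligopyrimidine or TOP motif, through which mTOR signalling controls how strongly they are translated. The genes are short, contain several introns and are read in nearly every cell. Mammalian genomes also hold many intron-less copies of them that arose from reverse-transcribed messenger RNA, so that the spliced gene is one of several places to which a read can be aligned.

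The spliced transcripts of the cytosolic ribosomal protein genes were examined in skin taken as ear punches from brushtail possums (Trichosurus vulpecula), all adult females, 3 with a grey and 3 with a black coat. The study asked which genes underlie grey and black coat colour; ribosomal protein genes are among the most abundant transcripts of the same libraries. Each of the 6 libraries came from poly(A)-enriched RNA of 1 sample and was strand-specific. The labels define the groups by coat colour and name no treatment. By the study's account the colours also differed in the alleles of ASIP, the agouti signalling gene, that they expressed: the grey animals expressed the reference allele, alone or with a variant one, and the black animals the variant allele alone. An ear punch holds all cell types of the ear at once, and in such bulk tissue fewer cells of a type and less RNA per cell cannot be told apart.

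A gene was included where at least 1 transcript with 2 or more exons was assembled for a gene whose symbol has the form of a ribosomal protein gene (RPL or RPS and a number, with RPLP0, RPLP1, RPLP2 and RPSA, but without the RPS6 kinases). This gave 73 genes, with 29 of the small and 44 of the large subunit, of 16831 genes that had a spliced transcript in any library. They were represented by 740 assembled transcripts. Of 79 cytosolic ribosomal protein genes in a standard list, 68 were among the 73, and the other 5 members were the paralogues RPL22L1, RPL26L1, RPL3L, RPL7L1 and RPS27L. The 11 genes of the standard list that were not included comprised, among others, RPS4X, RPS6, RPS19, FAU, RPL8, RPL10, RPL17, RPL36A, RPL41 and RPLP1. FAU has a symbol of another form, and its level is given with the other translation genes. RPL8 lies in a possum gene without a symbol, where its spliced transcripts had 1446, 1747 and 2102 TPM, the level per transcript length scaled to the same total in every library, in the grey and 2508, 2533 and 1130 in the black libraries. RPL10 had single-exon transcripts under its name away from the annotated gene, at 296 to 422 TPM.

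The libraries differed in depth and in composition. Between 4.17 and 10.2 gigabases were aligned per library, with the fewest in grey replicate 1, and 75.9% to 80.2% of TPM was in spliced transcripts. In grey replicate 1, 3 windows of 10 kb without a named gene held 11.4% of TPM, against 0.364% to 1.13% in the other libraries, which lowers the TPM of all other genes there. Markers of skeletal muscle had a summed level of 5396 TPM in black replicate 1 against 85.9 to 150.0 in the other 5 libraries. The list of macrophage and dendritic markers was highest in black replicate 3, at 1724 TPM against 536 to 874 elsewhere, and so were all 11 of its tested genes. For the skin label, 7 of 14 keratinocyte markers were tested and the list summed to 4621 to 8921 TPM, while the keratins KRT5 and KRT14, which define basal keratinocytes, were not measured under those symbols. Ear cartilage markers summed to 563 TPM in grey replicate 1 against 218 to 303 elsewhere, and erythroid genes were not measured under their symbols.

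The 73 genes were spread over 10 chromosomes of the possum assembly mTriVul1.pri. Chromosome 2 held 15, chromosome 1 held 12, and the X chromosome held RPL39, whose protein lines the exit tunnel for the growing chain. The main intron chain, meaning the set of splice junctions with most TPM, had 2 to 10 exons with a median of 4. The mean assembled length of a gene, weighted by TPM over all libraries, was 259 to 2373 nt with a median of 540 nt. Lengths given below for single libraries are means of the same kind. For 43 genes the same main chain was found in all 6 libraries. RPL23, RPS15A and RPL22 were among 10 genes with 1 chain only, and for these the value of a library does not depend on which exons were joined.

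Levels covered a wide range. The mean over the 6 libraries ran from 4.48 TPM for RPL3L to 6325 TPM for RPS27, with a median of 1678.5 TPM against 13.1 TPM over all genes tested. At least 1000 TPM was reached by 53 genes, 15 had 100 to 1000 TPM and 5 had less than 100 TPM, and 51 of the 73 were among the 100 most abundant genes of the tissue. TPM is a level per length, but these values hold spliced transcripts only and depend on the assembled length. Comparisons between genes are therefore approximate, and they understate genes with much of their TPM in single-exon transcripts. The median gene of the small subunit had 2063 TPM and that of the large subunit 1523 TPM. The order of the genes was much alike from library to library, with a Spearman correlation of 0.83 to 0.94 across the 73 genes, which are not independent and share the depth of their library.

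**Figure D1:**
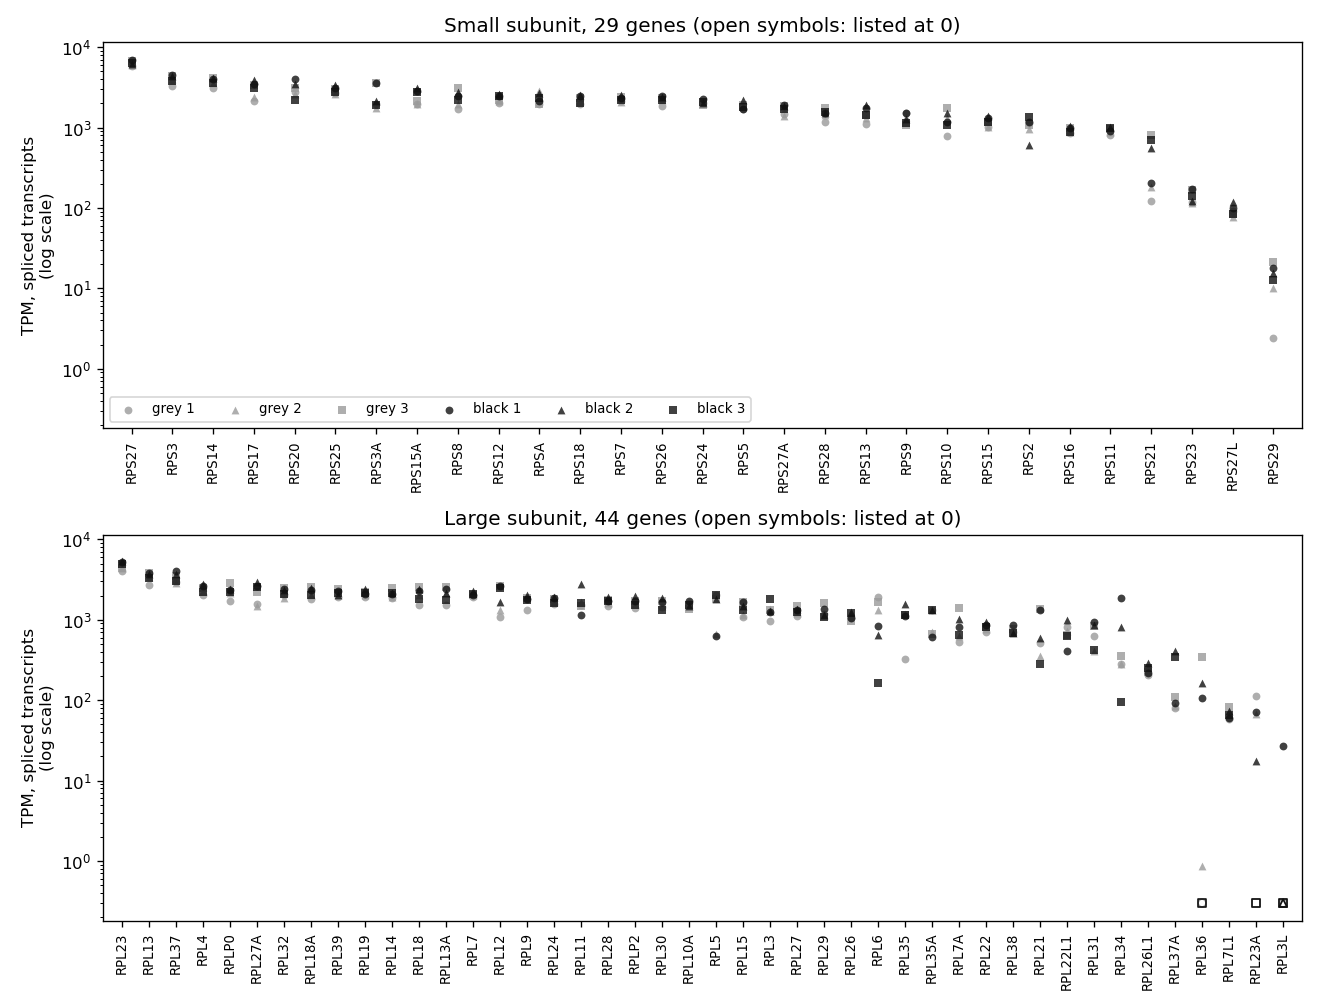
Level of each of the 29 small subunit and 44 large subunit genes in the 6 libraries, in TPM of spliced transcripts on a log axis, ordered by the mean. Grey symbols are grey and black symbols black libraries, and open symbols at the foot mark genes listed at 0. RPS27 is highest in every library and most genes lie above 1000 TPM, while RPL34, RPL6, RPS21 and the genes at the right end spread most.

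RPS27, a zinc-binding protein of the small subunit, was the most abundant ribosomal protein transcript in all 6 libraries. It had 5815, 5943 and 6667 TPM in the grey and 6939, 6241 and 6348 TPM in the black libraries, and the colours overlapped. It lies on chromosome 4 (chr4:163648910-163650697, minus strand) and its main chain had 4 exons. RPL23 and RPS3 took ranks 2 and 3 in every library. RPS3, which lies at the entry of the messenger RNA into the small subunit, had 3304, 4071 and 4433 TPM in the grey and 4449, 4339 and 3845 TPM in the black libraries. RPS14, the small subunit gene known from the 5q deletion of human myelodysplasia, had a mean of 3750 TPM, RPL13 of 3458 TPM and RPL37 of 3361 TPM. These 6 genes held 20.1% to 21.3% of all ribosomal protein TPM, a share that differed little between libraries. Their colour means differed by 0.08 to 0.29 on the log2 scale, with adjusted p = 1.00 for each (limma, Benjamini-Hochberg over 14341 genes).

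At the other end stood genes with low spliced values. RPS29, another zinc-binding protein of the small subunit, had 2.43, 10.2 and 21.6 TPM in the grey and 17.8, 15.5 and 12.6 TPM in the black libraries. Single-exon transcripts at the gene itself had 118 to 186 TPM in 5 libraries and were listed at 0 in grey replicate 3. With single-exon transcripts under its name elsewhere in the genome, the total was 1263 to 1758 TPM, of which the spliced value is a small part. RPL36 was listed at 0 in grey replicate 1 and black replicate 3, at 0.88 TPM in grey replicate 2, and at 342, 106 and 163 TPM in grey replicate 3 and black replicates 1 and 2. With single-exon transcripts under its name, nearly all of them at other loci, the total was 206 to 596 TPM. RPL23A had 112.0, 68.0 and 0 TPM in the grey and 71.1, 17.6 and 0 TPM in the black libraries, and in black replicate 3 a single-exon transcript at the gene had 76.6 TPM. These 2 genes and RPL3L were the only members listed at 0 in any library, and the other 70 were above 0 in all 6. RPL7L1, a paralogue of RPL7 with a known part in making the large subunit, and RPS27L had means of 67.6 and 92.3 TPM.

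RPL3L replaces RPL3, a core protein of the large subunit near the peptidyl transferase centre, in striated muscle. It was listed at 0 in 5 libraries and at 26.9 TPM in black replicate 1, where its main chain had 10 exons (chr9:76505417-76514886, minus strand). All its spliced transcripts there rested on about 1220 reads, estimated from their coverage. That library is the one with the muscle markers, and all 14 tested genes of the muscle list were highest in it. EEF1A2, the form of elongation factor 1A known from muscle and neurons, was at 191 TPM in the same library and at 0.28 to 2.00 TPM in the others. RPL3 itself had 970, 1358 and 1313 TPM in the grey and 1233, 1289 and 1792 TPM in the black libraries, so that its value in black replicate 1 lay within the range of the rest.

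As a group, ribosomal protein genes took 10.6%, 11.4% and 13.4% of all TPM in the grey libraries and 13.4%, 13.7% and 12.01% in the black libraries. The mean was 11.8% ± 1.44 (SD, n = 3) in grey and 13.1% ± 0.925 (SD, n = 3) in black, a difference of 1.25 percentage points, and the colours overlapped. The lowest library was grey replicate 1, and without the unnamed windows its share became 11.98%, the range over all libraries 11.5% to 13.8% and the difference 0.767 percentage points. Without grey replicate 1 the difference was 0.646. The share of aligned bases ran from 3.21% to 4.34% and was highest in black replicate 2, as was the share of TPM, followed by grey replicate 3.

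The subunits varied together across libraries. Small subunit genes took 4.95%, 5.37% and 6.19% of TPM in grey and 6.37%, 6.37% and 5.63% in black libraries, and large subunit genes 5.67%, 6.06% and 7.22% in grey and 7.07%, 7.37% and 6.39% in black libraries. The log2 ratio of large to small subunit TPM was therefore almost the same in each library, at 0.20, 0.18 and 0.22 in grey and 0.15, 0.21 and 0.18 in black. The difference between colours was -0.02, within the SD of 0.02 and 0.03 in the colours.

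**Figure D2:**
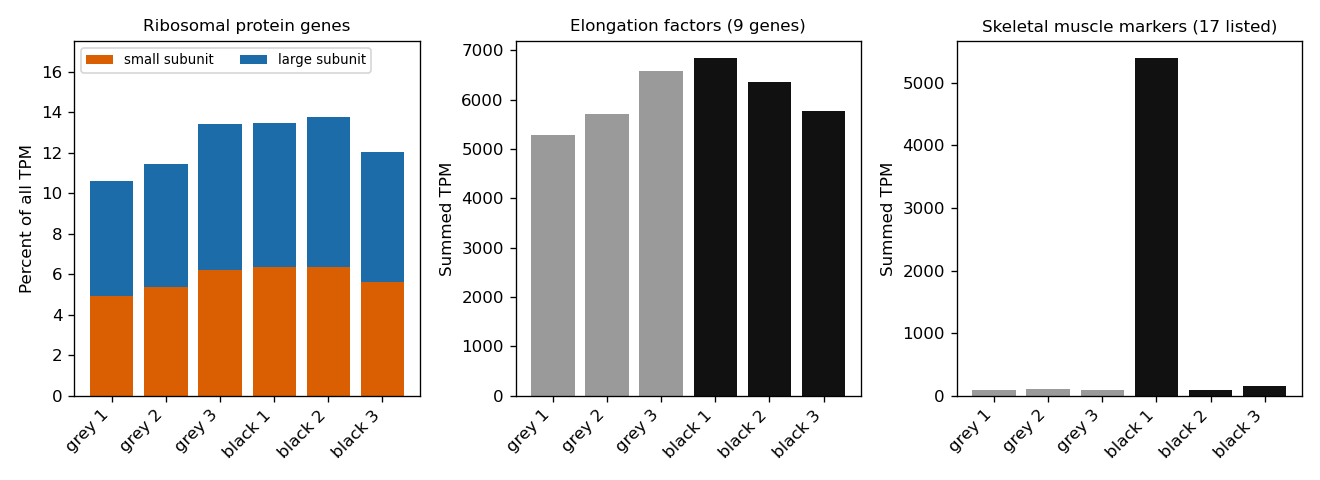
Summed share of ribosomal protein genes in percent of TPM, split by subunit (left), summed TPM of 9 elongation factors (middle) and of the skeletal muscle markers (right), with 1 bar per library. Grey replicate 3 and black replicates 1 and 2 are highest in the left and middle panels, and black replicate 1 stands alone in the right panel.

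The 3 libraries with the highest ribosomal protein share, grey replicate 3 and black replicates 1 and 2, also had the highest sums of elongation and initiation factors. Elongation factors, which deliver transfer RNA and move the ribosome along, summed to 5286, 5713 and 6584 TPM in the grey and 6840, 6361 and 5773 TPM in the black libraries. Initiation factors, which bring ribosome and messenger RNA together, summed to 4952, 5297 and 6223 TPM in grey and 5914, 5901 and 5544 TPM in black. Other genes with a TOP motif were highest in the same libraries, at 15100, 15897 and 16873 TPM against 14189 to 14908 TPM. The lowest sum was that of grey replicate 1, where the unnamed windows held 11.4% of TPM. That part is larger than the gap between its TOP sum and that of grey replicate 3. The order of the libraries in this list therefore depends on whether the windows are counted. This list is not independent of the factor lists, since it shares genes with them, among others EEF1A1, EEF2 and EIF3E. Genes of the mitochondrial ribosome, a separate ribosome with its own proteins, summed to 2898, 3227 and 3058 TPM in grey and 3334, 3441 and 3317 TPM in black, where every black library was above every grey one. All of these are sums over genes and were given no test. The keratinocyte sum was highest in grey replicate 3, at 8921 TPM, but did not follow the same libraries otherwise. Black replicates 1 and 2, at 6248 and 6198 TPM, lay below grey replicate 2 and black replicate 3, at 6705 and 6384 TPM. Coverage of the first relative to the last exon of ribosomal protein transcripts, a measure of how complete the transcripts were, had a median of -0.61 to -0.90 (log2) per library, with the highest value in grey replicate 1. Adipocyte markers, of which 3 of 6 were tested, were also highest in grey replicate 3 and black replicates 1 and 2, at 75.2, 53.5 and 50.8 TPM against 25.6 to 39.1 TPM elsewhere. The same libraries were not the highest for the keratinocyte, fibroblast, skeletal muscle, macrophage and dendritic, lymphocyte, endothelial, cartilage or proliferation lists. The part of cell makeup, transcript completeness and the unnamed windows in these sums was not tested.

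Between black and grey skin, none of the 73 genes passed the test at an adjusted p of 0.05 (limma on log2(TPM + 1), Benjamini-Hochberg over all genes). Over all 14341 genes tested 2 passed, or 0.0139%. At an unadjusted p under 0.05 there were 4 of 73, or 5.48%, against 1.98% of all genes, and they were RPS15A, RPL27A, RPL6 and RPL37A. Every black library was above every grey library for 5 genes (RPL22, RPL23, RPL27A, RPS12 and RPS15A), against 3.63% of all genes, and below for RPL6, against 2.32% of all genes. With each library scaled to the median ratio over genes, RPL22 no longer separated, which left 4 genes above (2.96% of all genes) and 1 below (2.81%). The log2 fold change, black minus grey, was above 0 for 64 of 73 genes, or 87.7%, against 56.6% of all genes, with a median of 0.12 against 0.04. With median-ratio scaling the shares were 83.6% and 50.8% and the medians 0.08 and 0.00. Without the unnamed windows 74.0% of members were positive, with a median of 0.06 against -0.02 over all genes, and by locus coverage, a measure that does not use assembled lengths, 93.2%, with 0.14 against 0.05. Leaving out 1 library at a time gave from 67.1% with a median of 0.06 against 0.02 (without grey replicate 1) to 91.8% with 0.19 against 0.02 (without black replicate 3), and without grey replicate 3 the member median was 0.22. The members share their libraries, so that a library with a high ribosomal protein sum moves most of them at once. Black replicate 2 was the highest library for 30 members and grey replicate 3 for 21.

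**Figure D3:**
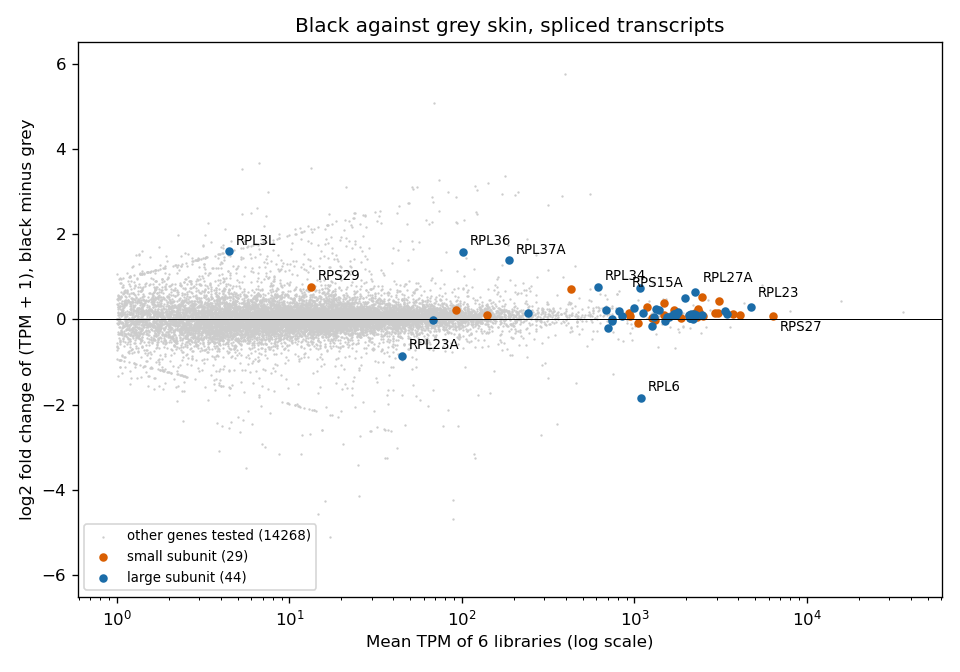
Log2 fold change of TPM + 1, black minus grey, against the mean TPM on a log axis, for the 29 small subunit genes (orange), the 44 large subunit genes (blue) and all other genes tested (pale points). Most ribosomal protein genes form a tight group at the right just above 0, while RPL6 lies at -1.85 and RPL3L, RPL36 and RPL37A lie above 1.

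The median SD within a colour was 0.20 on the log2 scale for the 73 genes. It was 0.28 for 478 other genes in the range that holds most levels of the members. Levels were not matched within that range, so that these medians do not compare genes of equal abundance. The 95% interval of a fold change reached a median of 0.45 on the log2 scale to either side, with 3 libraries a colour. This interval is not adjusted for the number of genes, so that differences above 0.45 could also go uncalled. RPS15A, at 0.52, was not called. By TPM the least variable genes were RPL23 and RPS12, with an SD of 0.06, followed by RPL7, RPS15A and RPS24 at 0.08. The SD of locus coverage was 0.07 for RPL23, 0.14 for RPS12 and 0.04 for RPS24, so that the order depends on the measure. The most variable by TPM were RPL36, RPL23A and RPL3L, the genes listed at 0 somewhere.

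RPL23, a protein at the face where the subunits meet and one of those that bind MDM2, was assembled as 1 chain of 4 exons and 423 nt in every library (chr4:186342060-186346323, plus strand), and no copy of it was assembled elsewhere under its name. It had 4057, 4392 and 4402 TPM in the grey and 5304, 5379 and 4981 TPM in the black libraries. Every black value was above every grey value, with means of 4284 ± 197 and 5221 ± 211 TPM (SD, n = 3). The log2 fold change was 0.29 with a standard error of 0.16 and adjusted p = 1.00 (limma). RPS12, a small subunit protein, had 2037, 2129 and 2230 TPM in the grey and 2490, 2642 and 2488 TPM in the black libraries, with a log2 fold change of 0.25. It was assembled at 635, 568 and 690 nt in grey and at 539, 513 and 512 nt in black libraries. Its spliced transcripts averaged 689 read bases per megabase aligned in grey and 683 in black, so that the difference in TPM was absent in read bases. RPL22, a large subunit protein known to bind RNA outside the ribosome, had 698, 774 and 811 TPM in the grey and 858, 929 and 823 TPM in the black libraries. For RPS12 and RPL22 the colours overlapped in locus coverage, the read depth over the exons that the libraries share.

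RPS15A, a small subunit protein that binds the central domain of its RNA, had the smallest unadjusted p of the group (unadjusted p = 0.013; adjusted p = 1.00; limma). It was assembled as 1 chain of 4 exons in all libraries (chr1:553049324-553055190, plus strand) and had 1953, 1957 and 2159 TPM in the grey and 2852, 3064 and 2764 TPM in the black libraries. The groups were apart, with means of 2023 ± 117 and 2893 ± 155 TPM (SD, n = 3) and a log2 fold change of 0.52 with a standard error of 0.16. Single-exon copies of RPS15A elsewhere in the genome had the opposite order, with 144, 125 and 160 read bases per megabase aligned in grey and 65.0, 71.8 and 58.2 in black libraries. Over the gene and its copies together, the values were 553, 515 and 616 in grey and 642, 722 and 629 in black libraries. The sum still separated the colours, but its log2 difference was 0.25 where that of the spliced gene was 0.52.

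RPL27A and RPL6, both of the large subunit, had the next smallest unadjusted p. RPL27A had 1586, 1476 and 2190 TPM in the grey and 2659, 2963 and 2534 TPM in the black libraries, a log2 fold change of 0.65 with a standard error of 0.20 (unadjusted p = 0.015; adjusted p = 1.00; limma). Its assembled length was 561, 691 and 484 nt in grey and 312, 478 and 312 nt in black libraries, and TPM divides by length. Locus coverage, meaning read bases per kilobase of the exons shared by the libraries and per megabase aligned, was 1222, 1325 and 1462 in grey and 1336, 1882 and 1305 in black libraries. These values overlapped, and with 1 fixed exon length the fold change was -0.10.

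RPL6 was the only member with every black library below every grey one. It had 1926, 1321 and 1660 TPM in the grey and 845, 648 and 165 TPM in the black libraries, with a log2 fold change of -1.85 and a standard error of 0.58 (unadjusted p = 0.016; adjusted p = 1.00; limma). The gene lies on chromosome 1 (chr1:33029168-33032063, plus strand) and was assembled in 9 different chains, with a mean length per library of 340 to 1733 nt. The main chain had 57.7%, 67.0% and 61.4% of its TPM in grey and 17%, 0% and 0% in black libraries. Locus coverage was 501, 615 and 430 in grey and 212, 339 and 189 in black libraries, so that the colours stayed apart and the log2 fold change was -1.10. Without black replicate 3, the lowest library, the TPM difference was -1.13. No copy of RPL6 was assembled under its name, and whether reads of it were assembled at loci without its name was not analysed here.

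**Figure D4:**
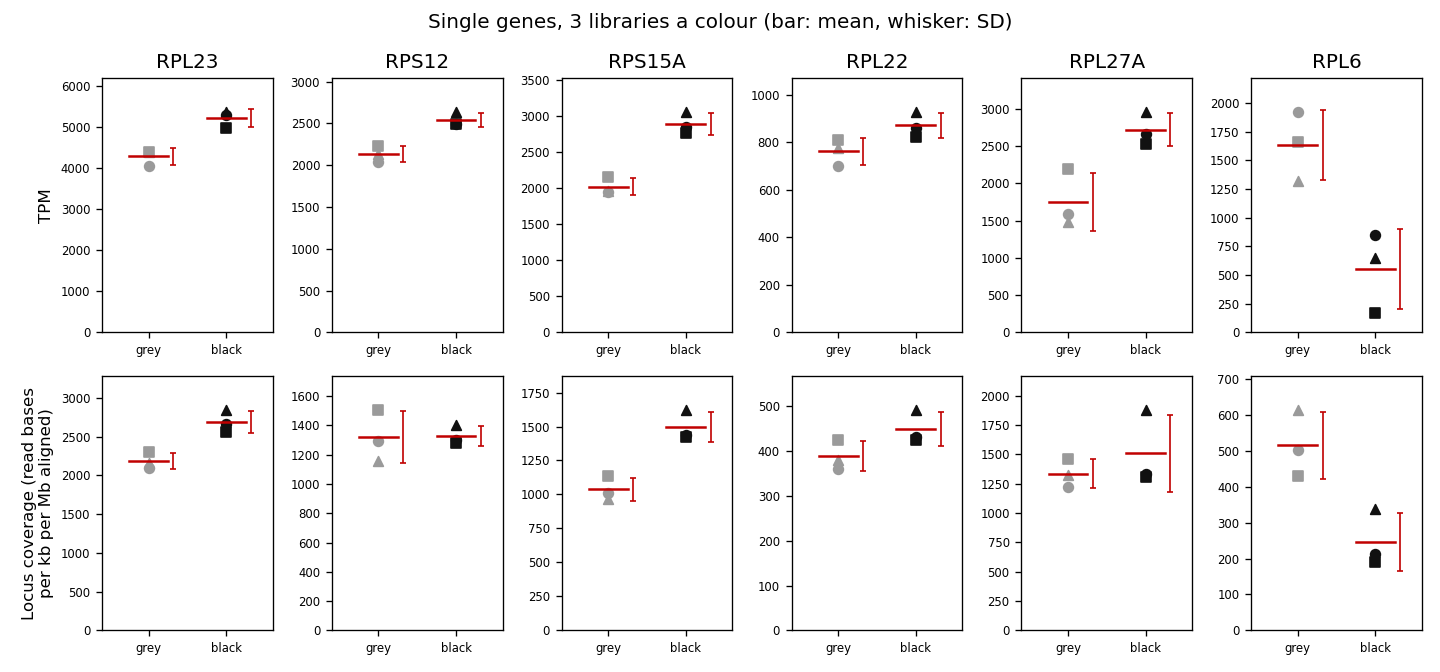
TPM (top) and locus coverage (bottom, read bases per kb of shared exons per Mb aligned) of the 5 genes with every black library above every grey one in TPM, and of RPL6, with 1 symbol per library. Red bars are means and whiskers the SD (n = 3). RPL23, RPS15A and RPL6 separate the colours in both rows, while RPS12, RPL22 and RPL27A overlap in the lower row.

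RPL37A, a zinc-binding protein of the large subunit, had 79.1, 83.6 and 110.4 TPM in the grey and 93.5, 411 and 347 TPM in the black libraries. The 2 high libraries were black replicates 2 and 3, black replicate 1 lay within the grey range, and the log2 fold change was 1.39 (unadjusted p = 0.037; adjusted p = 1.00; limma). The chain with 3 exons held all of its TPM in grey replicate 2 and black replicates 2 and 3 and none in the others. RPS13, a small subunit protein, came next by p, with 1120, 1327 and 1430 TPM in the grey and 1758, 1884 and 1416 TPM in the black libraries, and the colours overlapped through black replicate 3. After RPL6, the members with the most negative differences were RPL23A at -0.85, RPL22L1 at -0.21, RPL29 at -0.15 and RPS2 at -0.08, each with overlapping colours and adjusted p = 1.00 (limma). By locus coverage the differences of RPL23A, RPL22L1 and RPS2 were positive, at 1.91, 0.19 and 0.06.

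For some genes TPM and locus coverage gave different pictures. RPL5, which carries the 5S ribosomal RNA with RPL11, had 2050, 657 and 1808 TPM in the grey and 621, 1820 and 2050 TPM in the black libraries. Its locus coverage was 658, 657 and 806 in grey and 668, 815 and 753 in black libraries, a spread of 1.24-fold instead of 3.3-fold. The 2 libraries low in TPM, grey replicate 2 and black replicate 1, were those with the longest mean assembled length, at 2466 and 2619 nt against 633 to 942 nt. RPL12, at the base of the flexible stalk of the large subunit, spread 2.44-fold in TPM and 1.62-fold in locus coverage. RPS3A spread 2.05-fold and 1.34-fold. Over the 70 members above 0 in all libraries the median spread was 1.42-fold by both measures, and the number over 2-fold was 18 by TPM and 12 by locus coverage.

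Many members had single-exon copies elsewhere in the genome that carried their name. Such copies were assembled in every library for 60 of the 73 genes. All 1879 copy transcripts had a single exon and lay outside the span of the gene, and together they held 0.686% to 0.838% of aligned bases against 3.21% to 4.34% for the spliced genes. RPL34, a large subunit protein, had 286, 279 and 359 TPM in the grey and 1845, 808 and 94.3 TPM in the black libraries, the widest spread of any gene above 100 TPM in mean and above 0 in every library. Its spliced reads were 57.9, 54.3 and 78.7 bases per megabase aligned in grey and 283, 151 and 15.8 in black libraries. Its copies had 350, 303 and 328 in grey and 176, 331 and 252 in black libraries. The highest library for the spliced gene, black replicate 1, was the lowest for the copies, but black replicate 3 was low in both.

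RPL11, which binds MDM2 together with RPL5, had 404, 417 and 453 spliced bases per megabase aligned in grey and 292, 738 and 417 in black libraries. Its copies had 185, 191 and 182 in grey and 330, 59.6 and 229 in black libraries, so that black replicate 2 was highest in the gene and lowest in the copies, and black replicate 1 the reverse. RPS21, of the small subunit, had 19.8, 29.9 and 135 spliced bases in grey and 49.5, 100.3 and 115 in black libraries. Its copies had 173.5, 171 and 110.0 in grey and 174, 174 and 103 in black libraries, with the lowest values in the 2 libraries where the gene was highest. For RPL35 the copies did not mirror the gene: they had 433 to 592 bases per megabase aligned, while the spliced gene spread 5.72-fold. The spliced gene of RPL31 spread 3.23-fold, and its copies had 187 to 265 bases. Black replicate 1 was highest in the gene of RPL31, at 172, and lowest in its copies. Black replicate 3 was lowest in that gene, at 53.2, but not highest in the copies, at 235. In RPL31, RPL35, RPL36, RPL7A, RPS23 and RPS29 more than 50% of the bases were in copies in every library. Reads shared between a gene and a near-identical copy cannot be told apart in these files, so the spliced values of these genes are uncertain, and the part of the copies in the spread was not tested.

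**Figure D5:**
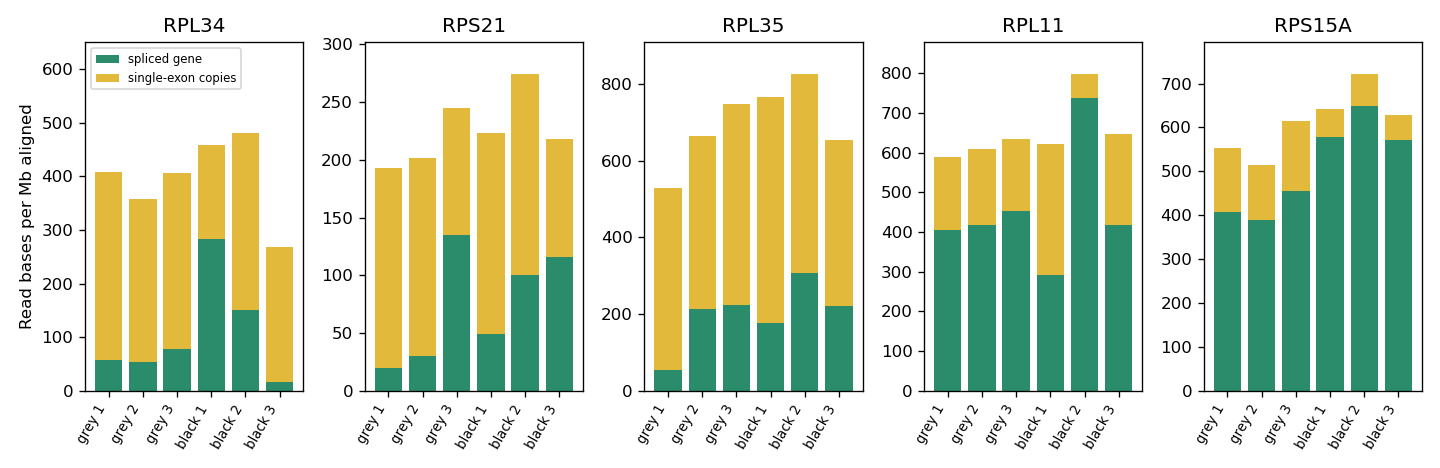
Read bases per megabase aligned of the spliced gene (green) and of its single-exon copies elsewhere (yellow) for RPL34, RPS21, RPL35, RPL11 and RPS15A, with 1 stacked bar per library. For RPL11 the green part is largest and the yellow part smallest in black replicate 2, and for RPS15A the green part is larger and the yellow part smaller in all 3 black libraries.

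RPS24, a small subunit protein whose gene is known for a small alternative exon near the end of the coding sequence, held its level while its splice form varied. It had 2031, 2099 and 1890 TPM in the grey and 2253, 2015 and 2089 TPM in the black libraries, and its locus coverage spread 1.12-fold, the least of the members above 0 in all libraries. An exon of 22 nt (chr8:60590498-60590519) was included in 67.0%, 65.4% and 35.1% of the TPM that spanned it in grey and in 68.7%, 77.0% and 68.8% in black libraries. Grey replicate 3 had the lowest share, with 664 TPM with the exon and 1226 TPM without it. A second small exon of 18 nt (chr8:60588936-60588953) was assembled in 3 libraries, in 1.34% to 5.64% of the TPM there. These shares are estimates of the assembler from short reads and were not tested between colours.

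Paralogues gave a ratio within each library, compared between colours with the exact two-sided permutation test over the 20 assignments of the libraries, which cannot give p below 0.1. RPL22L1 was nearly as abundant as RPL22, with 825, 735 and 642 TPM in the grey and 413, 981 and 626 TPM in the black libraries, or 32.5% to 54.2% of the pair. The log2 ratio of RPL22L1 to RPL22 was 0.24, -0.07 and -0.34 in grey and -1.06, 0.08 and -0.39 in black libraries, a difference of -0.40 (exact permutation p = 0.4; adjusted p = 0.8 over 4 pairs). RPL22L1 was assembled at 719 nt in black replicate 1, the low library, and at 728 nt in black replicate 3, against 479 to 481 nt in the other 4. RPL26L1 made up 16.6% to 19.0% of its pair with RPL26, RPL7L1 2.91% to 3.87% of its pair with RPL7, and RPS27L 1.25% to 1.85% of its pair with RPS27. Their log2 ratios differed between colours by 0.00, -0.12 and 0.14 (exact permutation p = 1, 0.6 and 0.5; adjusted p = 1, 0.8 and 0.8). RPL39L and RPL10L formed no pair here, and RPL3L was listed at 0 in 5 libraries.

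The wider translation pathway was compared in the same fit, and no gene of these lists passed the test at an adjusted p of 0.05. FAU, which makes a small subunit protein fused to a ubiquitin-like one, averaged 1204 ± 135 TPM in the grey libraries and 1328 ± 82.3 TPM in the black ones (SD, n = 3). RACK1, a scaffold on the small subunit, was not measured under that symbol. Of 9 elongation factors 7 had a positive fold change, with a median of 0.07. Every black library was above every grey one for 1 of the 9, EEF1B2, where the share of all genes was 3.63%. Its means were 1046 ± 35.4 TPM in grey and 1249 ± 163 TPM in black. In grey replicate 1, at 1075 TPM, the unnamed windows held 11.4% of TPM. That part is larger than the gap to black replicate 3, at 1153 TPM, so the separation depends on whether the windows are counted. Of 29 initiation factors 19 were positive, with a median of 0.04, and EIF3L had the smallest p, at 0.11 unadjusted and 1.00 adjusted. Other TOP genes, some of which are also among these factors, had a median of 0.08, and genes that build ribosomes 0.02. Among the latter 1 of 34 had an unadjusted p under 0.05, a share near the 1.98% of all genes. This was GAR1, a protein of the particles that modify ribosomal RNA, with 29.0, 28.7 and 34.1 TPM in the grey and 18.8, 21.9 and 14.2 TPM in the black libraries (unadjusted p = 0.0083; adjusted p = 1.00; limma). Regulators in the mTOR pathway had a median of -0.03 over 11 genes, with MTOR at 19.0 ± 5.38 and 14.8 ± 3.87 TPM. Of 76 mitochondrial ribosomal protein genes 58 were positive, with a median of 0.15, and 4 had every black library above every grey one and 1 below, where the shares of all genes were 3.63% and 2.32%. MRPS33 averaged 54.4 ± 2.81 TPM in the grey libraries and 67.5 ± 5.31 TPM in the black ones. For comparison, the median over all genes was 0.04.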

How the data were processed

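The authors trimmed reads with Trim Galore 0.6.10 (Phred below 20), aligned them with HISAT2 2.2.1 and assembled transcripts per library with StringTie 2.2.0, by the submitters' processing notes and the paper. The deposited files give coverage, FPKM and TPM per transcript, and TPM and coverage as deposited by the authors were used. Without read counts, a count model was not applicable. Libraries had 4.17 to 10.2 aligned gigabases, from the ratio of coverage to FPKM.

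Transcripts were given the symbol of the RefSeq gene (mTriVul1.pri) with which their exons overlapped on the same strand. TPM of multi-exon transcripts was summed per gene, and genes averaging 1 TPM or more were fitted with limma 3.58.1 (R 4.3.3) on log2(TPM + 1), with a mean-variance trend and Benjamini-Hochberg adjustment at 0.05. The fold change understates that of low genes. Named genes were those of highest and lowest level, largest change, smallest p and largest or smallest spread, paralogues, and genes listed at 0. RPL5, RPL11, RPL12, RPS3A, RPS12, RPL22, RPS24 and the genes shown with their copies were picked after their values were seen. Members and lists were chosen with earlier results of these data known. Fits were tested on simulated data. Same-numbered libraries did not deviate together (correlations of -0.01, 0.01 and -0.09). Whether samples came from separate litters or batches was not given, and p-values measure the spread between these samples. Promoter and protein sequences were not analysed here.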

Additional observations from a re-analysis of the deposited data

How the results depend on the processing

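The number of ribosomal protein genes called was 0 in each of 20 alternative settings, among them the replicate block, in which the median log2 fold change was 0.12 as without it, and all genes gave 0 to 5 calls against 2. The lowest adjusted p of a member was 0.13 (RPL37A without black replicate 1). Members with an unadjusted p under 0.05 numbered 1 to 7, against 4. Leaving out 1 library at a time gave a median log2 fold change of 0.06 to 0.22, a difference in summed share of 0.646 to 2.04 percentage points and a difference in the large to small subunit ratio of -0.033 to -0.002. With fixed exon lengths the difference in summed share was 0.482 and the median 0.03, and with quantile normalization the median was 0.04 with 67.1% positive. The median over all genes moved from 0.04 to 0.00 with median-ratio scaling.

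Of 367 alternative values 348 kept their direction and their side of the threshold and 19 turned. Without single libraries, the ratio of RPS27L to RPS27 ranged from -0.01 (without black replicate 2) to 0.25, RPL7L1 to RPL7 from -0.18 to 0.01 (without grey replicate 3), RPL26L1 to RPL26 from -0.06 (without grey replicate 1 or black replicate 2) to 0.06, and RPL22L1 to RPL22 from -0.67 to -0.10. Over single libraries left out, the fold change ranged from -0.52 to 0.10 for RPL22L1, -3.00 to 0.89 for RPL23A, -0.14 to 1.99 for RPL34 and -0.31 to 0.27 for RPS2. The fold change of RPL22L1 became 0.10 with fixed exon length and without black replicate 1, and 0.19 by locus coverage. RPL23A became 1.25 with single-exon transcripts included, 1.91 by locus coverage, and 0.41, 0.05 and 0.89 without grey replicate 1, grey replicate 2 and black replicate 3. RPS2 became 0.16 with fixed length, 0.06 by locus coverage and 0.27 without black replicate 2. RPL27A (-0.10) and RPS29 (-1.13) turned with fixed length, RPL34 (-0.14) without black replicate 1, and RPL36 (-0.02) by locus coverage. The causes were not tested. Locus coverage and leaving out the unnamed windows were chosen after seeing the data. A lone outlying library among 3 cannot be told from the spread, and depth limits genes listed at 0. The unadjusted 95% interval of the median member reached 0.45 on the log2 scale to either side. This is not a detection limit of the adjusted test, in which larger differences, such as that of RPL6 at -1.85, were not called.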
